A study of Homo sapiens with 8 samples.

Results

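The expression of 9 NADPH oxidase genes was followed by mRNA sequencing through 8 libraries of SET-2 cells: the dual oxidases DUOX1 and DUOX2, their maturation factors DUOXA1 and DUOXA2, and the phagocyte oxidase genes CYBB, CYBA, NCF1, NCF4 and RAC2. They were taken by symbol from a table of 25435 genes, which held all 9, and 8 of them passed the filter on low counts that left 14898 genes for testing. DUOXA1 did not pass. The gene set names DUOX2, which was probably chosen from its difference between knockout and control in these same libraries, and the exact values used are not recorded. The knockout values of DUOX2 and DUOXA2, in experiment 2 above all, are therefore descriptions that support nothing by themselves.

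SET-2 is a megakaryoblastic cell line from an essential thrombocythemia in leukemic transformation, and the series title places it in a JAK2-driven myeloproliferative setting. All cells received their guides by PLKO5 GFP virus. The 4 libraries called knockout here came from cells given guide 1 or guide 2 against ZRSR2, a splicing factor of minor introns. The 4 control libraries came from cells given non-targeting guide 1 or guide 2, with wildtype ZRSR2. Each of the 4 guides was used in experiment 1 and in experiment 2. RNA was taken at day 20 or day 25, which the protocol ties to a first and a later biological replicate. Reading these as experiments 1 and 2 is an assumption. The cells are bulk populations of 1 line, and nothing in the labels says that they were cloned. ZRSR2 mRNA in the knockout libraries averaged 62.9% of the control mean, from 18.7 to 29.4 CPM (read counts scaled to library size) against 37.9 to 41.1 CPM, with no overlap. Library totals ran from 31106042 to 71521173 expected counts, the highest being control guide 1 of experiment 2. A single count was worth 0.0143 to 0.0324 CPM.

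NADPH oxidases pass electrons from NADPH across a membrane to oxygen. In the phagocyte enzyme, CYBB encodes the catalytic subunit gp91phox and CYBA its membrane partner p22phox. NCF1 and NCF4 encode the cytosolic subunits p47phox and p40phox, and RAC2 a small GTPase that joins the active complex in blood cells. DUOX1 and DUOX2 are calcium-regulated oxidases that release hydrogen peroxide and are best known from the thyroid and from mucosal epithelia. DUOXA1 and DUOXA2 carry them from the endoplasmic reticulum to the cell surface.

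The 4 DUOX genes lie together on chromosome 15 as a pair of head-to-head couples. In each couple the starts face away from each other across a short stretch of DNA, and each oxidase is coupled with its own maturation factor. The stretches are shown because the results below set the partners of a couple side by side. They are RefSeq sequence on GRCh38.p14, plus strand, from the base after the minus-strand start to the base before the plus-strand start. The deposited counts were made on hg19, and no coordinate was converted. The capitals mark the only TATAAA, which ends 27 bases before the DUOXA2 start.
DUOX2-DUOXA2, chr15:45114173-45114325, 153 bases: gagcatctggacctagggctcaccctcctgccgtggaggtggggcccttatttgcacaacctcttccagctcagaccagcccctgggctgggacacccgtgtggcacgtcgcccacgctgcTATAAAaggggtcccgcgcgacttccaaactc
DUOXA1-DUOX1, chr15:45129880-45129993, 114 bases: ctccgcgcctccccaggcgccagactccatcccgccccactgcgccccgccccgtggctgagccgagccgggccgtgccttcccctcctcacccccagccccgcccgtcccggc

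GC content was 63.4% in the DUOX2-DUOXA2 stretch and 80.7% in the DUOXA1-DUOX1 stretch. Both strands were searched for 5 motifs: TATAAA for the TATA box, the CCAAT box, AGATAA for GATA factors, GAGGAA for PU.1 and TTCNNNGAA for STAT factors, and none of these contains another. TATAAA stood once in the first stretch, and 6.82% of 35116 RefSeq promoters hold it in the 153 bases before their start. The other motifs had no match in either stretch. Over 153 bases CCAAT is held by 23.8% of promoters, GAGGAA by 15.1%, AGATAA by 5.33% and TTCNNNGAA by 3.71%. Over 114 bases the shares are 19.8% for CCAAT, 11.4% for GAGGAA, 5.42% for TATAAA, 3.77% for AGATAA and 2.64% for TTCNNNGAA. The promoter table held 7 of the 9 genes, not NCF4 and RAC2. A partner start within 250 bases on the other strand was listed for 14.2% of its 27305 genes and for all 4 DUOX genes.

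Levels per kilobase of transcript spread the genes widely. Lengths were those of the longest basic protein-coding transcript in GENCODE 29, which need not be the authors' gene models. RAC2 was highest, with a median over the 8 libraries of 468 CPM per kilobase, followed by NCF4 at 209 and CYBA at 89.3. Far below these came NCF1 at 7.69, DUOX2 at 2.80 and DUOXA2 at 1.65 CPM per kilobase. CYBB, the catalytic subunit that CYBA accompanies, had a median of 0.786 CPM per kilobase, with a range of 0.644 to 1.08. DUOX1 was at 0.139 and DUOXA1 at 0.0270. Neighbours in this order whose ranges overlapped were DUOX2 (2.19 to 4.0) with DUOXA2 (1.26 to 4.17), and DUOX1 (0.0266 to 0.271) with DUOXA1 (0 to 0.0504). All other neighbours were apart in every library.

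DUOX2, the dual oxidase with the higher level here, separated the genotypes in experiment 2 and not in experiment 1. In experiment 1 it was at 18.4 and 18.2 CPM with ZRSR2 guides 1 and 2, and at 19.9 and 14.8 CPM with control guides 1 and 2. The knockout libraries lay between the controls there. In experiment 2 it was at 14.3 and 15.3 CPM with ZRSR2 guides and at 26.1 and 24.5 CPM with control guides, so that both knockout libraries were below both controls. Relative to the control mean, knockout stood at 105% in experiment 1 and 58.5% in experiment 2 (n = 2 each). In bulk RNA, fewer cells that express a gene and less RNA per cell cannot be told apart.

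**Figure D1:**
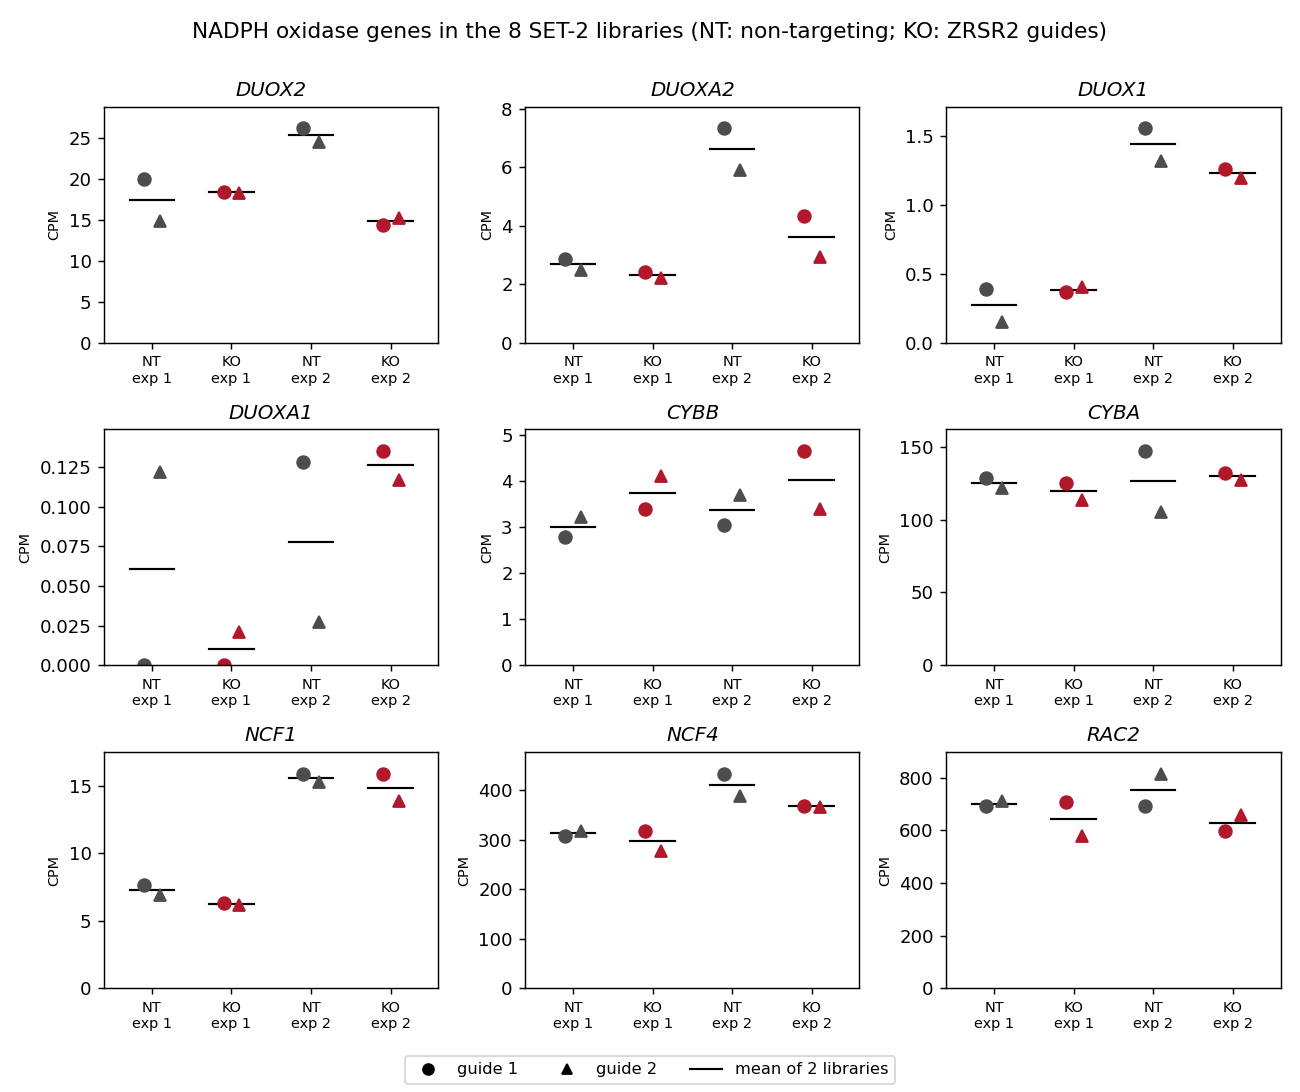
Level of each NADPH oxidase gene in CPM (linear axis from 0) in the 8 libraries, by genotype (NT, non-targeting; KO, ZRSR2 guides) and experiment. Points are libraries, circles guide 1 and triangles guide 2, and lines are means of 2 libraries. DUOX2 in experiment 2 lies at 14.3 and 15.3 CPM in knockout and at 26.1 and 24.5 CPM in control, and NCF1 differs between experiments in both genotypes.

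The DUOX2 levels of the genotypes lay further apart in experiment 2. Control libraries had more DUOX2 in experiment 2 than in experiment 1, 25.3 ± 1.18 against 17.4 ± 3.64 CPM (SD, n = 2). Knockout libraries had less, 14.8 ± 0.652 against 18.3 ± 0.118 CPM (SD, n = 2). In both genotypes the 2 libraries of experiment 1 did not overlap the 2 of experiment 2. The share of all tested genes that did so within a genotype was not computed. With both genotypes together, 28% of tested genes were higher without overlap in experiment 2 and 28% lower. The log2 fold change of knockout over control was 0.08 (SE 0.15) in experiment 1, which edgeR's quasi-likelihood test did not call (adjusted p = 1). Without control guide 2 of experiment 1 that value turned to −0.12. In experiment 2 it was −0.77 (SE 0.15), and the difference of these values was −0.85 (SE 0.21). Across the 14898 tested genes, 1 gene had a smaller unadjusted p than DUOX2 for experiment 2, and 1 for the difference, a rank that the choice of DUOX2 may have used.

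DUOXA2, the factor that DUOX2 needs to mature, shared the lower level in experiment 2. It was at 4.33 and 2.93 CPM with ZRSR2 guides and at 7.34 and 5.91 CPM with control guides, 54.8% of the control mean (n = 2 each). In experiment 1 it was at 2.41 and 2.23 CPM in knockout and at 2.88 and 2.50 CPM in control, 86.2% of the control mean. Knockout libraries were below controls in both experiments, by a narrow margin in the first. The log2 fold change was −0.21 (SE 0.25, edgeR adjusted p = 1) in experiment 1 and −0.87 (SE 0.23) in experiment 2. The difference between these was −0.66 (SE 0.34, edgeR adjusted p = 1).

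**Figure D2:**
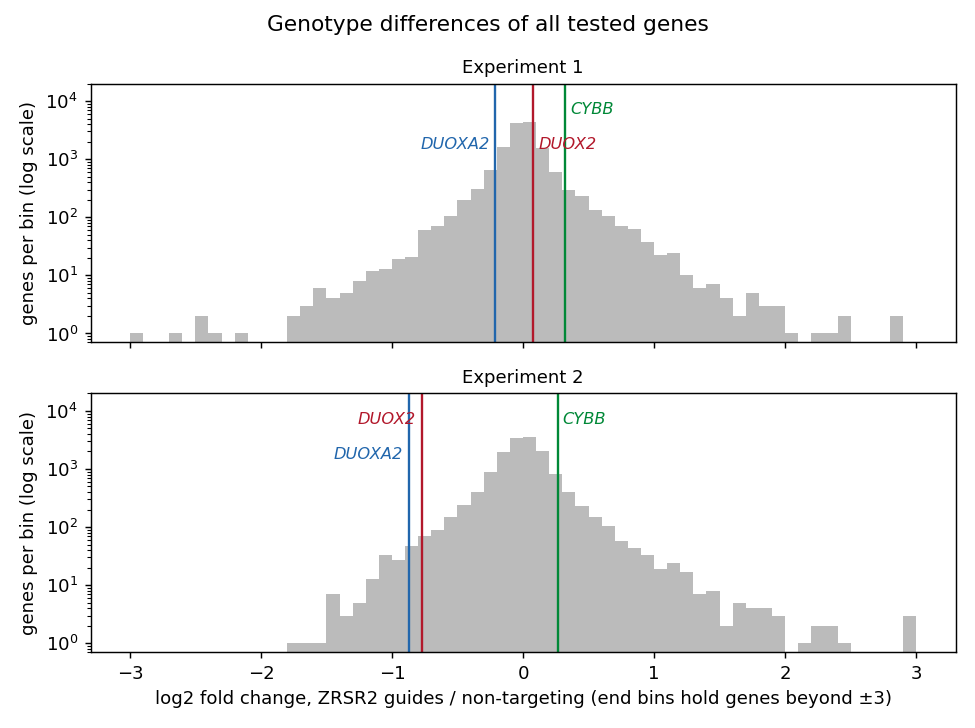
Number of tested genes (log axis) by log2 fold change of ZRSR2 guides over non-targeting guides, in bins of 0.1, for experiments 1 and 2. Lines mark DUOX2, DUOXA2 and CYBB. DUOX2 sits at 0.08 in experiment 1 and −0.77 in experiment 2, and CYBB at 0.32 and 0.26.

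The test across all genes gave few calls for genotype. In edgeR 0 of the 8 genes and 0% of all tested genes had an adjusted p under 0.05 in experiment 1, in experiment 2 and for their difference. At an unadjusted p under 0.05 stood 305, 645 and 248 genes, among them 0, 3 and 1 of the 8. In experiment 2 the edgeR adjusted p of DUOX2 was 0.765. DUOX2 was probably chosen from this difference, so its p-values there, and those of DUOXA2, are descriptions. DESeq2 called 13 genes in experiment 2, 0.0873% of those tested. DUOX2 was the member among them, with a DESeq2 adjusted p of 0.00613. Leaving out either knockout library of experiment 2, so that 1 remained whose spread was taken from the other groups, ended that call. The DESeq2 adjusted p was 0.118 without guide 1 and 0.930 without guide 2. Without control guide 1 of experiment 2, edgeR called 154 genes there and still 0 of the 8. DESeq2 called 5 genes in experiment 1, 0.0336%, and 0 for the difference, with no member among them. In edgeR without a count filter, where 116 of 20284 genes were called, DUOX2 had an adjusted p of 6.88e-04 and DUOXA2 of 0.0257 in experiment 2.

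DUOX1 and DUOXA1 had the fewest reads of the genes, and DUOXA1 stood at the edge of detection. DUOX1 had 13 and 19 reads in the knockout libraries of experiment 1, beside 12 and 5 in the controls. Experiment 2 gave 56 and 51 reads in knockout and 109 and 48 in control, the 109 from the deepest library. In CPM the knockout libraries of experiment 2, at 1.26 and 1.195, were just below the controls, at 1.55 and 1.32. Over all libraries knockout over control gave −0.11 (SE 0.71, edgeR adjusted p = 1) for DUOX1, with either sign when single libraries were left out. DUOXA1 had 0, 1, 0 and 4 reads in experiment 1 and 6, 5, 9 and 1 in experiment 2, in the order ZRSR2 guides 1 and 2, control guides 1 and 2. A count of 0 allows up to 0.0971 CPM in the shallowest library. GENCODE 29 gives DUOXA1 706 exon bases that lie over DUOXA2 exons on the other strand, and DUOX1 554 that lie over the antisense gene AC051619.6. The use of strand in counting is not given in the sources used here, so reads from such bases cannot be told apart.

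In experiment 2, 5 of the 8 tested genes had both knockout libraries below both controls: DUOX2, DUOXA2, DUOX1, NCF4 and RAC2. Of all tested genes 12.3% did so, and 11.2% were higher without overlap, where the set had 0. DUOX2 was probably chosen from this difference and DUOXA2 is its partner, so the count supports nothing by itself. In experiment 1, DUOXA2 and NCF1 were lower without overlap (17.9% of all tested genes) and CYBB was higher (18.5%). Over both experiments 0 of the 8 were lower in all 4 knockout libraries than in all 4 controls (0.376% of tested genes) and 0 were higher (0.302%).

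**Figure D3:**
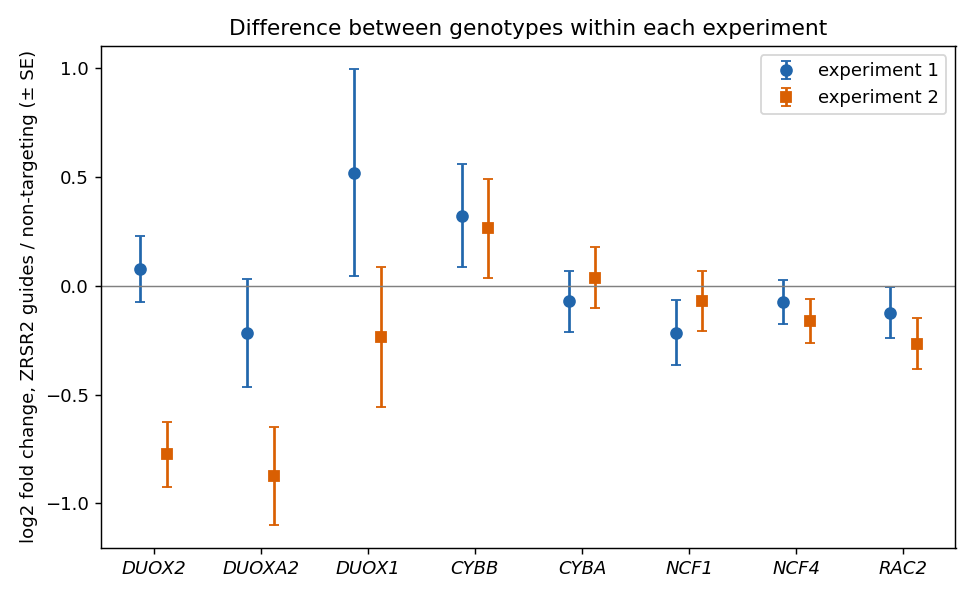
log2 fold change of ZRSR2 guides over non-targeting guides (± SE, from edgeR) for the 8 tested NADPH oxidase genes, experiment 1 as circles and experiment 2 as squares. DUOX2 and DUOXA2 lie at −0.77 and −0.87 in experiment 2, and CYBB is above 0 in both experiments.

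Over all 8 libraries, knockout against control gave no call for the oxidase genes, with log2 fold changes from −0.65 for DUOXA2 to 0.29 for CYBB. Of all tested genes 0.779% had a lower value than DUOXA2 and 95.7% a lower value than CYBB. DUOX2 averaged 16.6 ± 2.06 CPM in knockout and 21.3 ± 5.08 CPM in control (SD, n = 4), which is −0.37 on the log2 scale (SE 0.19). DUOXA2 averaged 2.97 ± 0.950 and 4.66 ± 2.35 CPM (SD, n = 4), which is −0.65 on the log2 scale (SE 0.39). In edgeR's test 0 of 8 genes and 0% of all tested genes were called, and the adjusted p was 1 for DUOX2 and for DUOXA2. At an unadjusted p under 0.05 edgeR had 89 genes, 0.597% of those tested, and 0 of the 8. With the experiment as a block it had 690 genes, 4.63%, and 3 of the 8. The DUOX2 value was −0.36 with the block. Of the 8 genes, 7 had a negative log2 fold change, with a median of −0.12, against 51.3% of all tested genes and a median of −0.00333. DESeq2 called 4 genes, 0.0268%, and with the block 31 genes, 0.208%, and 0 of the 8 in either fit.

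The ZRSR2 guides were set side by side with the controls. Against both control guides the log2 fold change was −0.38 (SE 0.27) for ZRSR2 guide 1 and −0.35 (SE 0.26) for guide 2, while ZRSR2 itself was at −0.45 (SE 0.14) and −0.92 (SE 0.15). For DUOXA2 the values were −0.46 (SE 0.54) and −0.85 (SE 0.55). Without 1 library the DUOX2 values ranged from −0.57 to −0.16 for guide 1 and −0.51 to −0.13 for guide 2. Those of DUOXA2 ranged from −0.94 to −0.045 and from −1.11 to −0.43. Guide 2 against guide 1 was at 0.03 (SE 0.30) for DUOX2 and −0.39 (SE 0.62) for DUOXA2, each with an edgeR adjusted p of 1. The control guides differed from each other by −0.23 (SE 0.30) for DUOX2 and −0.29 (SE 0.61) for DUOXA2. In all 4 of these guide comparisons edgeR called 0 of the 8 genes and 0% of all tested genes, with 13 to 60 genes at an unadjusted p under 0.05 and 0 of the 8 among them. With the block edgeR called 10 genes, 0.0671%, for guide 2 against the controls, again with 0 of the 8.

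The catalytic subunit of the phagocyte oxidase, CYBB, was low and slightly higher with ZRSR2 guides. It was at 3.40 and 4.11 CPM in the knockout libraries of experiment 1, above the controls at 2.78 and 3.23 CPM. In experiment 2 it was at 4.66 and 3.40 CPM in knockout and 3.05 and 3.71 CPM in control, which overlap. Over all libraries the means were 3.89 ± 0.615 and 3.19 ± 0.390 CPM (SD, n = 4), which is 0.29 on the log2 scale (SE 0.18, edgeR adjusted p = 1). It was the 1 gene of the 8 with a positive value.

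Its partner CYBA showed no separation of the groups. It was at 125 and 113 CPM in knockout and 129 and 122 CPM in control in experiment 1, and at 132 and 127 CPM in knockout and 147 and 105 CPM in control in experiment 2. The control libraries of experiment 2 enclosed all 6 others. Knockout over control gave −0.02 (SE 0.11, edgeR adjusted p = 1), a sign that turned when some libraries were left out.

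RAC2, the most abundant of the genes, was at 708 and 580 CPM in knockout and 693 and 711 CPM in control in experiment 1. In experiment 2 it was at 598 and 658 CPM in knockout and 693 and 816 CPM in control, without overlap. The means were 636 ± 58.4 and 728 ± 59.1 CPM (SD, n = 4), which is −0.20 on the log2 scale (SE 0.10, edgeR adjusted p = 1). NCF4, the p40phox gene, was at 318 and 276 CPM in knockout and 308 and 318 CPM in control in experiment 1. In experiment 2 it was at 368 and 367 CPM in knockout and 434 and 388 CPM in control. Its log2 fold change over all libraries was −0.12 (SE 0.14, edgeR adjusted p = 1).

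Experiment 2 differed from experiment 1 for 4 of the 8 genes, and all 4 rose. edgeR called 58.2% of all tested genes in this comparison, 29.6% as higher and 28.6% as lower, so a count of 4 of 8 is near the background. Every experiment 2 library was above every experiment 1 library for these 4, as for 28% of all tested genes. The knockout and control libraries enter together, and each experiment was a single collection, so day and batch cannot be told apart.

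NCF1, the p47phox organiser, changed with the smallest p of the set. It was at 6.29 and 6.17 CPM in knockout and 7.60 and 6.86 CPM in control in experiment 1, and at 15.8 and 13.9 CPM in knockout and 15.9 and 15.3 CPM in control in experiment 2. The rise was 2.26-fold in means, or 1.18 as log2 fold change (SE 0.10, edgeR adjusted p = 6.31e-06). NCF1 has the near-identical copies NCF1B and NCF1C, between which reads are hard to place. Both copies rose too, with log2 fold changes of 1.06 (SE 0.21, edgeR adjusted p = 0.00141) for NCF1B and 1.15 (SE 0.13, edgeR adjusted p = 4.24e-05) for NCF1C. The copies together took 28.6% to 34.5% of the reads of NCF1, NCF1B and NCF1C in the 8 libraries, with no separation of the experiments, and the NCF1 value is uncertain for that reason. Knockout over control gave −0.12 (SE 0.41, edgeR adjusted p = 1) for NCF1, a sign that turned without some libraries.

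In the head-to-head couples, DUOX1 and DUOXA2 rose between experiments, DUOX2 was not called and DUOXA1 was not tested. DUOX1 rose 4.07-fold in means, from 0.327 ± 0.117 to 1.33 ± 0.156 CPM (SD, n = 4), or 2.04 as log2 fold change (SE 0.28, edgeR adjusted p = 1.16e-04). DUOXA2 rose 2.05-fold, from 2.51 ± 0.275 to 5.13 ± 1.91 CPM (SD, n = 4), which is 0.98 on the log2 scale (SE 0.17, edgeR adjusted p = 5.43e-04). DUOX2, with the other start of that couple, was at 17.8 ± 2.17 and 20.0 ± 6.11 CPM (SD, n = 4), or 0.12 as log2 fold change (SE 0.11, edgeR adjusted p = 0.356). That value averages the genotypes, in which the experiment 2 mean of DUOX2 was 1.46 times that of experiment 1 in control and 0.808 times in knockout, and that of DUOXA2 2.46 and 1.56 times. The ratio of DUOX2 to DUOXA2 reads was 5.91 to 8.19 in experiment 1 and 3.31 to 5.21 in experiment 2, without overlap. A test of the difference between the 2 genes was not run.

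NCF4 rose by a smaller step, from 305 ± 19.8 to 389 ± 31.4 CPM (SD, n = 4), which is 0.35 on the log2 scale (SE 0.07, edgeR adjusted p = 0.00160). CYBB was not called at 0.13 (SE 0.16, edgeR adjusted p = 0.518), CYBA at 0.07 (SE 0.10, edgeR adjusted p = 0.587), and RAC2 at 0.03 (SE 0.08, edgeR adjusted p = 0.752). Without control guide 2 of experiment 2, whose CYBA level was the lowest of all, CYBA was called higher at 0.17 (edgeR adjusted p = 0.0344). The signs of the CYBA and RAC2 values turned when other single libraries were left out.

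**Figure D4:**
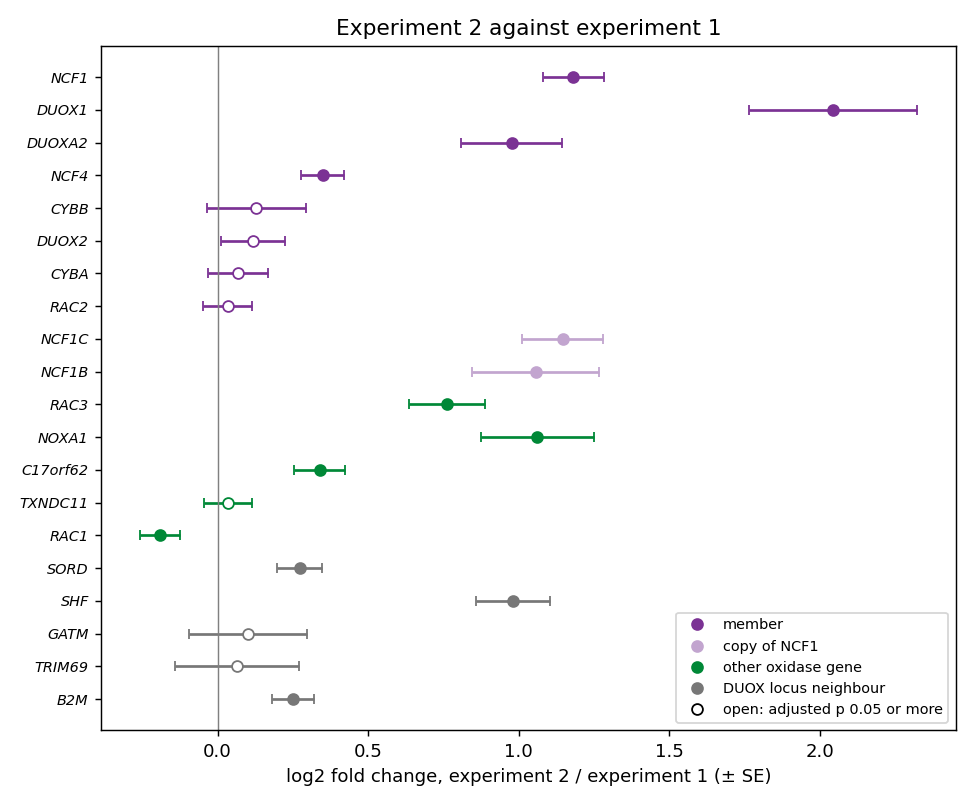
log2 fold change of experiment 2 over experiment 1 (± SE, edgeR fit with genotype and experiment) for the tested NADPH oxidase genes, the copies of NCF1, other oxidase genes and neighbours of the DUOX genes. Filled points have an adjusted p under 0.05. DUOX1 lies farthest right at 2.04, while DUOX2, CYBB, CYBA and RAC2 are open points near 0.

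Other oxidase genes were taken from a list of 12 symbols, of which 11 were in the table and 6 were tested. Catalytic subunits other than CYBB and the DUOX pair were close to absent: NOX1 and NOX3 had at most 2 reads in a library, NOX4 at most 4 and NOX5 at most 21. The organiser NOXO1 had 0 to 12 reads. For genotype 0 of 6 were called over all libraries, and 0 in either experiment. For experiment 4 of 6 were called, 66.7% against 58.2% of all tested genes. NOXA1, an activator subunit, rose from a mean of 2.04 to 4.22 CPM, at 1.06 (SE 0.19, edgeR adjusted p = 6.39e-04). RAC3, a Rac GTPase, rose from 22.3 to 37.8 CPM, at 0.76 (SE 0.13, edgeR adjusted p = 4.24e-04), and C17orf62, which encodes the EROS chaperone of gp91phox, from 100.5 to 127 CPM, at 0.34 (SE 0.08, edgeR adjusted p = 0.00523). RAC1 fell by 0.19 (SE 0.07, edgeR adjusted p = 0.0301), from 188 to 165 CPM. TXNDC11, a thioredoxin-like partner of the dual oxidases, was at 37.6 to 44.3 CPM and was not called (edgeR adjusted p = 0.730).

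Heme peroxidases use the hydrogen peroxide that oxidases supply. The phagocyte peroxidase MPO was at 0 to 0.0713 CPM. Genes that define thyroid tissue were absent or nearly so: none of 8 was tested, NKX2-1 and FOXE1 had 0 reads in all 8 libraries, and the highest level of any of the 8 was 0.274 CPM.

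Genes that feed, switch on and clear after the oxidases were compared as lists. None of them had a call for genotype, where 0% of all tested genes were called. The shares called between experiments stand beside 58.2% of all tested genes. Of 11 genes of NADPH supply, 6 were called between experiments (54.5%), 2 higher and 4 lower, with NADK, the kinase that makes NADP, lower at −1.05 (SE 0.11, edgeR adjusted p = 1.63e-05). Of 13 genes of oxidase activation 10 were called (76.9%), 5 in each direction. Protein kinase C beta, PRKCB, which phosphorylates p47phox, rose from 433 to 867 CPM, at 1.00 (SE 0.10, edgeR adjusted p = 1.65e-05), and the Rac exchange factor PREX1 rose at 0.56 (SE 0.09, edgeR adjusted p = 2.99e-04). Of 23 tested genes of antioxidant defence, among them those that remove superoxide and peroxide, 15 were called (65.2%), 8 higher and 7 lower. SOD2, the mitochondrial superoxide dismutase, fell by 0.73 (SE 0.07, edgeR adjusted p = 1.11e-05) and HMOX1, heme oxygenase, rose at 0.82 (SE 0.09, edgeR adjusted p = 3.61e-05). The medians of the 3 lists were −0.0377, −0.0477 and −0.0350, beside 0.00349 over all tested genes.

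Known regulators of phagocyte oxidase genes were partly expressed. Of 10 listed, 7 were tested, 0 were called for genotype and 4 between experiments, 2 in each direction, which is 57.1% beside 58.2% of all tested genes. SPI1, which encodes the myeloid factor PU.1, was at 85.7 to 103 CPM and gave −0.01 (SE 0.07, edgeR adjusted p = 0.945) between experiments. CEBPE, a factor of late granulocytes, rose from 0.163 to 0.555 CPM, at 1.86 (SE 0.34, edgeR adjusted p = 7.98e-04). IRF8 was at 0 to 0.0647 CPM in the 8 libraries and was not tested.

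Markers of cell types were called between experiments in shares around the 58.2% of all tested genes. Of 9 tested phagocyte markers 6 were called (66.7%), 5 higher and 1 lower. Of 12 megakaryocyte markers 6 were called (50%) and of 9 erythroid markers 6 (66.7%), 4 higher and 2 lower in each list. Of 5 epithelial markers 3 were called, 1 higher and 2 lower, and of 2 lymphoid markers 1, which was higher. The summed level of the 14 listed phagocyte markers was 814 to 865 CPM in experiment 1 and 1060 to 1291 CPM in experiment 2. ITGB2, the integrin beta chain of leukocytes, rose at 1.87 (SE 0.08, edgeR adjusted p = 1.30e-07) and the receptor gene CSF3R at 1.93 (SE 0.10, edgeR adjusted p = 5.46e-07). The phagocyte markers CSF1R, ELANE, FCGR3A, S100A8 and S100A9 were too low to test. Within experiment 2 the phagocyte sum was 1060 to 1131 CPM in knockout and 1291 CPM in both controls. There the megakaryocyte sum was 3387 to 3860 CPM in knockout and 3877 to 4187 CPM in control, and the erythroid sum 1703 to 1765 and 1767 to 2440 CPM. In that comparison 7 of 9 phagocyte, 10 of 12 megakaryocyte and 9 of 9 erythroid markers had a negative log2 fold change, 0 of them called. Of epithelial markers 2 of 5 were negative there, and of lymphoid markers 2 of 2, against 49.4% of all tested genes. Within experiment 1, 4 of 9 phagocyte, 3 of 12 megakaryocyte and 8 of 9 erythroid markers were negative, also against 49.4%. The erythroid markers were thus mostly lower in both experiments. The part of these shifts in the DUOX2 and DUOXA2 values was not tested. ITGA2B, a platelet integrin that marks the megakaryocyte lineage of the line, was at 2085 to 2708 CPM. That was the highest level among the 13 listed megakaryocyte markers. PF4 and PPBP, from the same list, were low, at no more than 3.03 and 0.975 CPM in any library. Of the 13 listed, 11 had a mean of at least 1 CPM, and GP1BB was the 1 at 0 in all libraries. Epithelial markers summed to 55.2 to 83.8 CPM and lymphoid markers to 10.7 to 51.5 CPM.

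Genes around the DUOX cluster served as a view of the locus. Of 6 listed neighbours 5 were tested, and 0 were called for genotype, where 0% of tested genes were. Between experiments SHF, SORD and B2M were called and rose, 3 of 5 or 60%, beside 58.2% of all tested genes. SHF, an adaptor gene near DUOX1, rose from 4.82 to 9.56 CPM, at 0.98 (SE 0.12, edgeR adjusted p = 6.23e-05). SORD, sorbitol dehydrogenase, near DUOX2, rose from 50.8 to 61.4 CPM, at 0.27 (SE 0.07, edgeR adjusted p = 0.00865). B2M gave 0.25 (SE 0.07, edgeR adjusted p = 0.00975), GATM (edgeR adjusted p = 0.682) and TRIM69 (edgeR adjusted p = 0.807) were not called, and SLC28A2 had at most 1 read in a library. Within experiment 2, knockout over control gave −0.03 (SE 0.10) for SORD and −0.21 (SE 0.17) for SHF, beside −0.77 for DUOX2.

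The genes most like DUOX2 were sought among 13155 tested genes with a mean of at least 1 CPM. By Pearson correlation of log2 CPM over the 8 libraries they were BRPF3 (r = 0.937), EMC9 (0.925), ASXL1 (0.918), SIRT2 (0.901) and ICAM2 (0.884). After the mean of each experiment was subtracted, they were HDAC11 (0.982), RGAG1 (0.980), BRPF3 (0.978), ABTB1 (0.958) and ZNF688 (0.952). BRPF3, in both lists, was at 56.3 and 55.1 CPM in the knockout libraries of experiment 2 and at 69.0 and 65.9 CPM in the controls. Its levels in experiment 1 were 59.4 to 64.1 CPM. DUOXA2 had r = 0.643 with DUOX2 over the 8 libraries and 0.807 after the subtraction. The genes most like CYBB were TLK2 (0.968), DISP1 (0.947), RBBP5 (0.942), RPS23 (0.934) and SARNP (0.929). CYBB against its partner CYBA had r = −0.331. The 8 libraries share 2 collections and the genes were picked as the highest of many, so these correlations are a description.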

How the data were processed

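The authors deposited 1 table of RSEM expected counts per gene symbol for 8 libraries, and these were rounded to whole numbers before use. RSEM 1.2.30, cutadapt 1.11 and build hg19 are named in the submitters' processing notes. Aligner, annotation and use of strand are not given in the sources used here. Columns were matched to samples by the library number in the titles, and 0 other columns were present. The low-count filter was filterByExpr of edgeR with genotype as group, which left at least 99.966% of each library's counts. The CPM values use TMM-scaled totals. Tests were edgeR 4.0.16 quasi-likelihood F tests in R 4.3.3 with Benjamini-Hochberg adjustment over all 14898 genes and a threshold of 0.05. Genotype was fitted alone, experiments in 4 cells of genotype by experiment, and guides in 4 groups. Standard errors came from the F statistic. Scripts were tested on simulated data. DESeq2 1.42.0, other filters and scaling, the experiment as a block and fits without each library were alternatives. Correlations used log2 CPM with a prior count of 2, computed from the rounded counts.

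Libraries of one experiment deviated together from their genotype means, with correlations of 0.678 to 0.846 in 8 knockout-control pairs. Across experiments these were −0.816 to −0.709, so the experiment pairs the samples. Genotype and guide values over both experiments came from fits without this pairing unless a block is named. Their standard errors include the difference between experiments. No labels say that the libraries of an experiment came from separate cultures beyond their guides, and p-values then measure the spread between these libraries. Floors for a count of 0 use 3 counts and cover counting error only. Members, lists and comparisons were chosen with earlier results of these data known. All 9 members, the NCF1 copies, the locus neighbours and the listed oxidase partners are described, except for some listed genes whose values are not reported here. Other lists, except the heme peroxidases, are given as counts between experiments with at most 3 genes of smallest unadjusted p. SPI1, IRF8, MPO, ITGA2B, PF4, PPBP and untested or absent marker genes were named after their values were seen.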

Additional observations from a re-analysis of the deposited data

Results flagged for a closer look

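Values that stood apart from the other 3 libraries of a group of 4 were looked for in 44 groups, and 5 were found by Dixon's 95% limit, where chance gives about 2.2. RAC2 was at 816 CPM in control guide 2 of experiment 2, against 693 to 711 CPM in the other controls. RAC2 was also at 580 CPM in ZRSR2 guide 2 of experiment 1, against 693 to 711 CPM in the other libraries of that experiment. DUOX1 was at 0.152 CPM in control guide 2 of experiment 1, on 5 reads, against 0.365 to 0.403 CPM. DUOXA1 was at 0.0275 CPM in control guide 2 of experiment 2, on 1 read, against 0.117 to 0.135 CPM. Control guide 1 of experiment 2 had a total of 71521173 counts, against 31106042 to 36544665 in the other controls.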

How the results depend on the processing

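The count of the 8 tested genes called for knockout against control was 0 with the experiment as a replicate block, and the block changed no call of these genes in the guide comparisons. Within experiment 2 the count of 0 became 1 with DESeq2 and 2 without a count filter. Without 1 library the DUOX2 value there ranged from −0.83 to −0.73 in DESeq2 fits, which were added after the data were seen. DUOX2 was probably chosen from this contrast, so the count for experiment 2 is a description. Between experiments it was 4 to 5 without 1 library.

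Some signs turned. Without 1 library the genotype value ranged from −0.44 to 0.37 for DUOX1, −0.078 to 0.069 for CYBA and −0.38 to 0.089 for NCF1, and that of DUOX2 in experiment 1 from −0.12 to 0.31. Between experiments CYBA ranged from −0.062 to 0.17 and RAC2 from −0.035 to 0.11. With the replicate block, the DUOX1 genotype value was 0.0376 in DESeq2, and in edgeR without 1 library it turned to 0.05003, 0.0739, 0.0873 and 0.151, and that of CYBA to 0.0115, 0.0241 and 0.0743. The cause was not tested. Of 547 values under alternatives, 506 stayed on the same side in sign and call, or within 1.5 times as a count. The low reads of DUOX1 and DUOXA1 limit any statement on them.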
